A study of Mus musculus with 6 samples.

Results

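The 3 precursors of miR-124, mmu-mir-124-1, mmu-mir-124-2 and mmu-mir-124-3, were taken by name from a table of 855 miRNA precursors measured in mouse retina. All 3 passed the minimum mean of 10 RPKM (reads scaled to the length of the precursor and to the size of the library), as did 461 of the 855. As the values were deposited, the 3 copies stood at nearly the same level in retinas with and without Dicer1 in rods, with overlapping groups. In these values most other miRNAs rose, and miR-124 was lower in every knockout library relative to 299 of the 458 other tested precursors. Both the rise and the level of miR-124 depended on the scaling. With the median precursor held level across libraries, 2.17% of tested precursors were called higher and miR-124 was called lower (limma adjusted p = 0.0047). With quantile normalization miR-124 was not called (limma adjusted p = 0.059).

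The libraries came from whole retinas of mice aged 4 weeks on a mixed C57BL/6J - SJL background. Every animal carried floxed Dicer1 alleles (Dicerfl/fl). The 3 control libraries came from animals without the iCre75 transgene (iCre75-) and the 3 conditional knockout (cKO) libraries from animals with it (iCre75+). Dicer1 encodes the RNase that cuts precursor hairpins to mature miRNAs, and iCre75 is a Cre transgene driven by the rhodopsin promoter, so that the deletion concerns rod photoreceptors and leaves the other retinal cells with Dicer1. Each library was made from a pool of 6 retinas, and the sources used here do not tell which animals went into a pool. The p-values below measure the spread between these pools. In whole retina, fewer cells of a type and less miRNA per cell cannot be told apart.

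miR-124 is the hallmark miRNA of vertebrate neurons. It is switched on as progenitors leave the cell cycle, represses transcripts that neurons do not use, such as those of the REST pathway and the splicing regulator Ptbp1, and is scarce in glia. In the retina it is found in photoreceptors as well as in inner neurons. A level in whole retina therefore adds up rods, in which Dicer1 was deleted, and many other neurons, in which it was not.

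The 3 copies come from separate genes. In RefSeq's gene table mir-124-1 is the gene Mir124a-1 on chromosome 14, with a precursor of 85 bases inside the long non-coding host gene Mir124a-1hg, also called Rncr3. The copy mir-124-2 is Mir124a-2 on chromosome 3, with a precursor of 109 bases inside the non-coding host gene Mir124-2hg, and the annotated miRNA gene Mir124b (Gm51272) overlaps it. The copy mir-124-3 is Mir124a-3 on chromosome 2, with a precursor of 68 bases and no overlapping gene in that table. The table is of the build GRCm38.p6 and the submitters' processing notes name mm9, so positions are not given.

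Because miR-124 was read against other miRNAs of the same library, the mature sequences of 6 of these, to which its ratio is given below, are shown as RefSeq gives them, with the seed, bases 2 to 8 that pair with targets, in capitals. The first 3 belong to the miR-183 cluster of photoreceptors and other sensory cells, and the next 3 are miRNAs of neurons.
miR-182-5p: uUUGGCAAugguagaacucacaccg
miR-183-5p: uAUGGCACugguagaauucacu
miR-96-5p: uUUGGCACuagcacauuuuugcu
miR-9-5p: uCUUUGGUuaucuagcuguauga
miR-181a-5p: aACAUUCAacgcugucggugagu
miR-138-5p: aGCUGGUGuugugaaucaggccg
No 2 of these seeds are the same. The deposited values are per precursor and do not tell the arms of a hairpin apart.

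The 3 copies were first compared with each other. In control 1, mir-124-1, mir-124-2 and mir-124-3 held 42717, 42736 and 42693 reads, worked out from RPKM and precursor length. In cKO 1 the same copies held 51589, 51669 and 51583 reads. In each library the highest copy, mir-124-2, exceeded the lowest, mir-124-3, by 0.0861% to 0.167%, so the 3 rows hold almost the same reads and are a single measurement. Their RPKM values differ because the same reads are divided by 85, 109 or 68 bases. Below, the miR-124 level is the mean RPKM of the 3 copies in a library.

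The level of mir-124-3, the shortest precursor, was 83955, 120098 and 116049 RPKM in control 1 to 3. In cKO 1 to 3 it was 109530, 100597 and 91633 RPKM. All 3 cKO libraries lay between the lowest and the highest control library. The miR-124 level was 67862, 97077 and 93795 RPKM in control 1 to 3 and 88536, 81318 and 74066 RPKM in cKO 1 to 3. Control 1 was the lowest of the 6 libraries and control 2 and control 3 were the highest, so the cKO libraries fell within the spread of the controls.

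**Figure D1:**
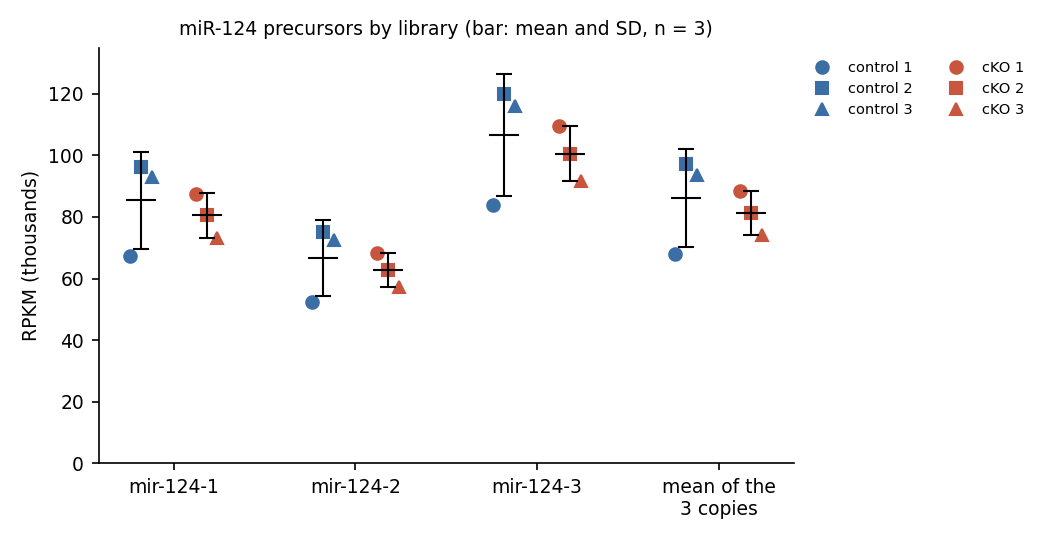
RPKM divided by 1000 (linear axis from 0) of each miR-124 precursor and of their mean in the 3 control (blue) and 3 cKO (red) libraries, with marker shapes for the replicate number and black bars for the mean and SD. The same order of libraries recurs in every copy, control 1 is the lowest point of each, and the cKO points lie inside the range of the control points.

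The miR-124 level averaged 86245 ± 16004 RPKM over the controls and 81307 ± 7235 RPKM over the cKO libraries (SD, n = 3 for either group). The log2 fold change, cKO minus control on the log2(RPKM + 1) scale, was -0.07 (SE 0.15, 95% interval -0.41 to 0.27) and did not pass the test (limma, Benjamini-Hochberg adjusted p = 0.68). The interval runs from 0.754-fold to 1.2-fold, so the deposited values show no change and leave room for a moderate fall or rise. The single copies gave the same result, at -0.07 each for mir-124-1, mir-124-2 and mir-124-3 (limma adjusted p = 0.68 each). Of all 461 tested precursors, 69.4% were called higher and 1.74% lower in cKO retina in the same fit.

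The size and sign of the miR-124 difference varied with single control libraries, and it was not called without any of them. Control 1 lay 1.41-fold below the mean of control 2 and control 3 (-0.49 on the log2 scale). The median of the other 458 tested precursors was 0.18 lower on that scale in control 1, and 76 of them were lower than miR-124. Of the 159 other precursors averaging 1000 RPKM or more, 21 were lower still in control 1, among them mir-183 at -0.96, whereas mir-182 stood at 0.11. Without control 1 the log2 fold change of miR-124 was -0.23 (SE 0.11; limma adjusted p = 0.080), and without control 2 it was 0.023 (limma adjusted p = 0.91).

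As a share of library reads, miR-124 made up 0.571%, 0.817% and 0.789% in control 1 to 3 and 0.745%, 0.684% and 0.623% in cKO 1 to 3. The means were 0.726% ± 0.135 and 0.684% ± 0.0609 (SD, n = 3 for either), and exact permutation (two-sided) gave p = 0.7. Counting error was far smaller than this spread: for mir-124-3 in control 2 the share was 0.8167% with a Wilson 95% interval of 0.8100% to 0.8234%. Such an interval covers counting error alone, because PCR copies of a molecule were not told apart by identifiers.

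The total that these shares refer to held many reads at mir-182, the precursor of highest mean RPKM over the 6 libraries. The fraction of reads outside mir-182 was 0.426, 0.464 and 0.468 in control 1 to 3. In cKO 1 to 3 it was 0.662, 0.710 and 0.723. Over the cKO libraries mir-181a-2 averaged more (4495813 RPKM) than mir-182 (4024508 RPKM). When reads at mir-182 were left out of the total, miR-124 made up 1.34%, 1.76% and 1.69% of the remaining reads in control 1 to 3. In cKO 1 to 3 it made up 1.13%, 0.964% and 0.863%. The groups no longer overlapped, and each cKO library was below each control library. The means were 1.60% ± 0.224 and 0.984% ± 0.133 (SD, n = 3 each), for which an exact permutation test (two-sided) returned p = 0.1, the lowest that 3 libraries against 3 can reach.

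The outcome for miR-124 therefore turned on what the libraries were scaled to. Median-of-ratios scaling, under which the median precursor is held level across libraries, gave miR-124 levels of 91629, 127785 and 110934 in control 1 to 3 and of 70891, 60376 and 56722 in cKO 1 to 3, in scaled RPKM. Every cKO library was below every control library, and control 1 was no longer the lowest of the 6. The log2 fold change was -0.81 (SE 0.14, 95% interval -1.13 to -0.49), a 1.75-fold fall (limma adjusted p = 0.0047). Under this scaling 9.98% of the 461 tested precursors were called lower and 2.17% higher, and the median log2 fold change of all of them moved from 0.74 to 0.014. Relative to the median of the other precursors, miR-124 stood at -0.82 as deposited, a distance that a factor per library leaves almost as it is. Neither scaling tells whether a retina held more or less miR-124, since every value is relative to other miRNAs of its library.

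The call also appeared with totals without mir-182 reads, at -0.70 (limma adjusted p = 0.013), where 7.81% of precursors were called lower and 4.34% higher. It appeared with totals without the 10 most abundant precursors, at -0.58 (limma adjusted p = 0.030), where 6.29% were called lower and 12.4% higher. With quantile normalization the level stood at -0.46 (limma adjusted p = 0.059) and was not called. In this setting 6.72% of precursors were called lower and 3.04% higher. With median-of-ratios scaling and without control 1, an alternative chosen after seeing the data, miR-124 fell by 0.93 (limma adjusted p = 0.0023).

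**Figure D2:**
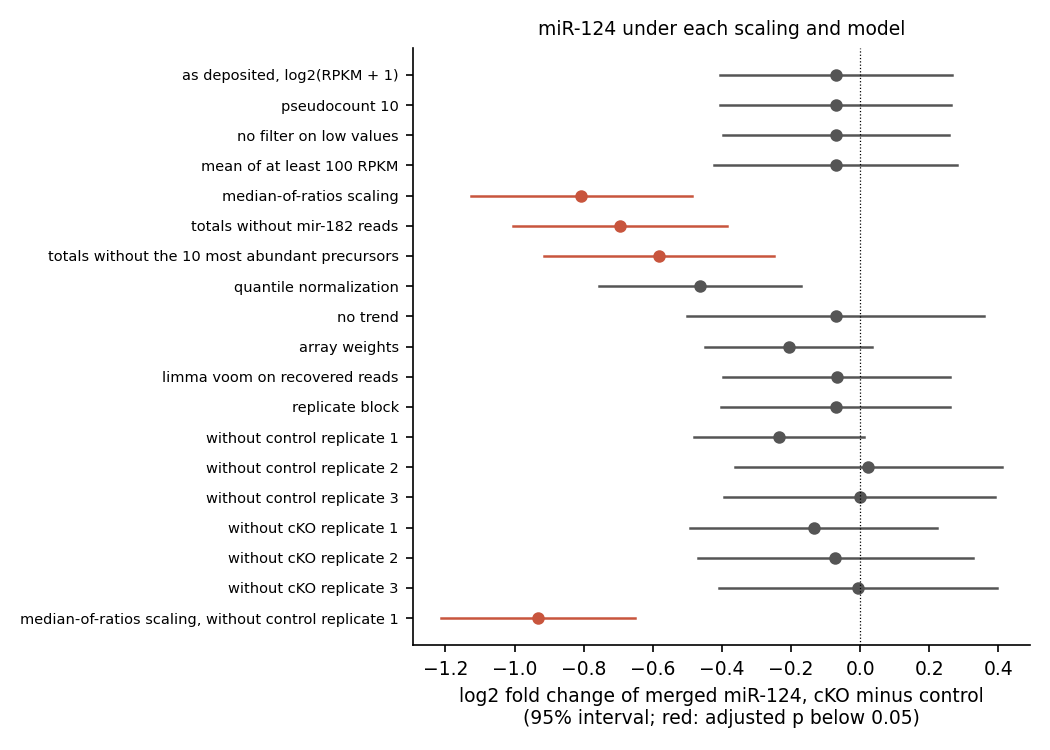
log2 fold change of the miR-124 level, cKO minus control (x axis), with its 95% interval for each scaling, model and left-out library (y axis), red where the limma adjusted p was below 0.05. The values as deposited centre on -0.07 with an interval across 0, while 3 of the 4 other scalings with all libraries give falls from 0.58 to 0.81 that pass, and quantile normalization gives -0.46, which does not.

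A ratio between 2 miRNAs of the same library does not depend on the library total. The ratio of miR-124 to mir-182, the photoreceptor miRNA, was 0.00887, 0.0136 and 0.0132 in control 1 to 3. In cKO 1 to 3 it was 0.0196, 0.0211 and 0.0200. Each cKO library was above each control library, a 1.73-fold higher ratio (log2 difference 0.79), so miR-124 gained on mir-182 in cKO libraries. The ratio to mir-96, another member of that cluster, was 7.29 ± 0.563 for controls and 9.78 ± 1.13 for cKO libraries (SD, n = 3 for either), again without overlap. The ratio to mir-183, the third member, was 0.240 ± 0.0483 and 0.245 ± 0.0332 (SD, n = 3 each), with overlapping groups (log2 difference 0.039). Leaving out control 2, control 3 or cKO 2 moved that difference to or below 0, as far as -0.078 without control 3.

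Against miRNAs of neurons the ratio moved the other way. A ratio lower in every cKO library was also found for 65.3% of all 458 other tested precursors. The ratio of miR-124 to mir-9-2, a miRNA of neural progenitors, neurons and Müller glia, was 0.915, 1.67 and 1.66 in control 1 to 3. In cKO 1 to 3 it was 0.822, 0.792 and 0.753. Each cKO library was below each control library, but control 1 was nearer to the cKO libraries than to the other controls. The ratio to mir-138-2, a miRNA of neurons that restrains dendritic spines, was 13.6, 19.8 and 14.6 in control 1 to 3. In cKO 1 to 3 it was 6.12, 4.72 and 4.71. This was a 3.06-fold lower ratio, the largest difference among the 9 ratios computed. The ratio to mir-128-1, a miRNA of mature neurons, was 13.4, 21.2 and 18.9 in control and 13.2, 10.9 and 10.9 in cKO 1 to 3, so that control 1 and cKO 1 barely differed. The ratio to mir-181a-2 of the inner retina was 1.72-fold lower in cKO retina, without overlap.

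The ratio to mir-204, known from the retinal pigment epithelium and Müller glia, was 2.04-fold lower in cKO retina (0.199 ± 0.0306 against 0.0980 ± 0.0200, SD, n = 3 each). The ratio to mir-126 of blood vessels was 2.71-fold lower (12.3 ± 1.82 against 4.52 ± 0.322, SD, n = 3 each). In 8 of the 9 ratios the groups did not overlap, and each of these had p = 0.1 by exact permutation (two-sided), the lowest value possible, or 0.11 after Benjamini-Hochberg adjustment over the 9. Only the ratio to mir-183 overlapped (exact permutation p = 0.9). With 3 libraries a group these tests cannot pass 0.05.

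**Figure D3:**
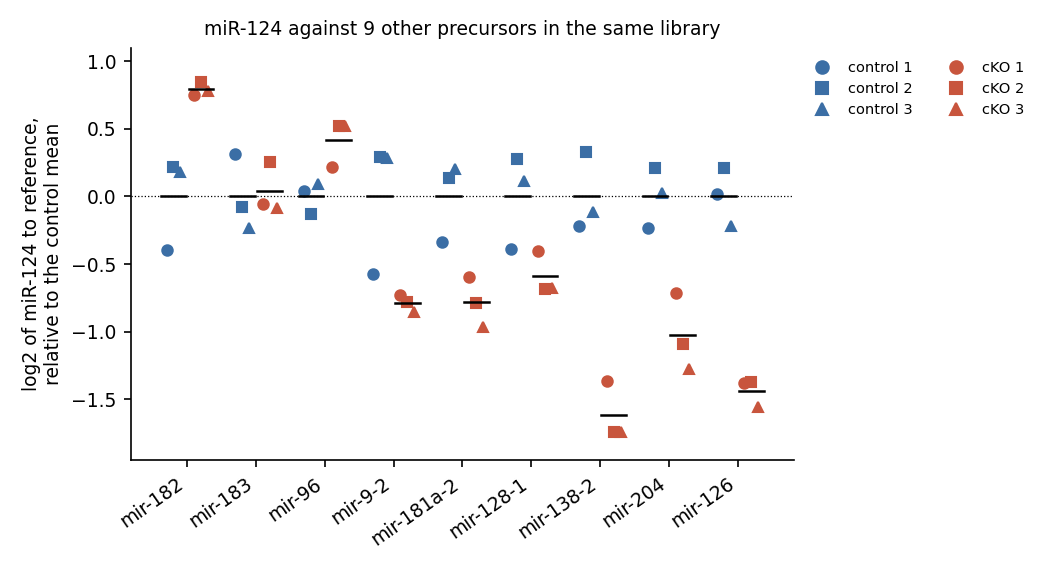
log2 ratio of miR-124 to 9 other precursors in the same library (x axis), set to 0 at the control mean (y axis), for the 3 control (blue) and 3 cKO (red) libraries, with black lines for group means. The ratio was higher in every cKO library against mir-182 and mir-96, overlapped against mir-183, and was lower in every cKO library against the other 6 precursors.

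Over all 458 other tested precursors, the ratio of miR-124 to the precursor was lower in each cKO library than in each control library for 299 (65.3%) and higher in each for 11 (2.40%). In the remaining 148 the groups overlapped. Other miRNAs with several copies count here once per copy, so the 458 are not all separate measurements. The median log2 difference of these ratios was -0.82. In terms of fold change, 23 of the 458 precursors (5.02%) had a lower log2 fold change than miR-124. Quantile normalization, which is not a single factor per library, gave 55. Without control 1 the ratio was lower throughout for 368 precursors and higher for 11. Leaving out each library in turn gave 305 to 379 lower, and fewer libraries make overlap less likely.

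**Figure D4:**
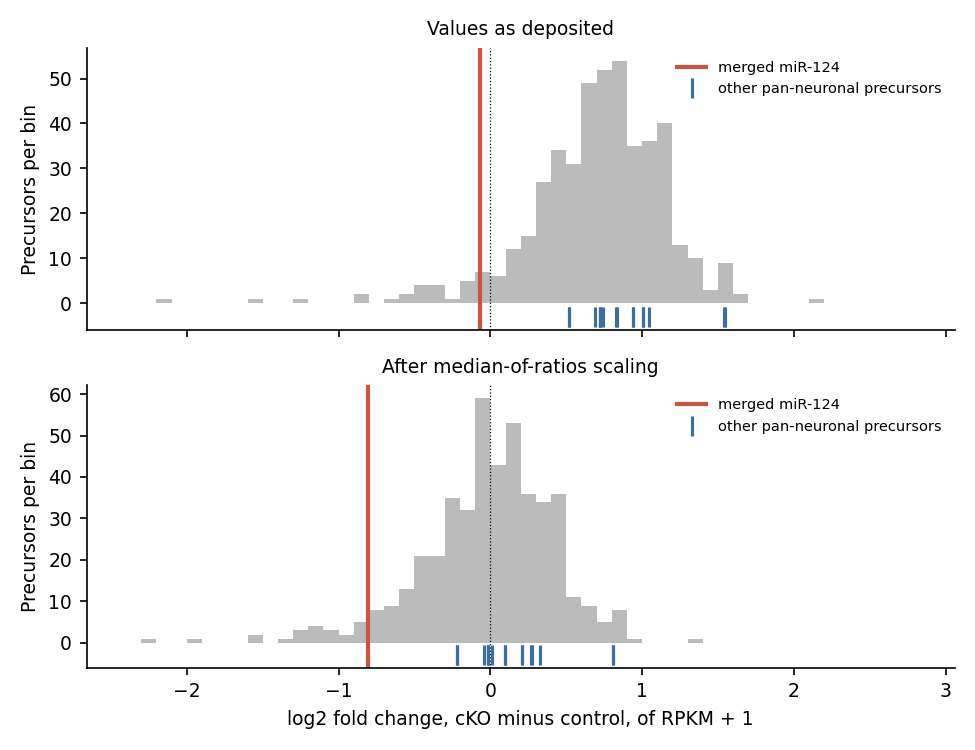
Histogram of log2 fold changes (x axis, cKO minus control) of the 458 other tested precursors (y axis, precursors per bin of equal width), as deposited above and after median-of-ratios scaling below, with miR-124 as a red line and 16 other precursors of neurons as blue ticks. miR-124 lies near the low end at -0.07 and -0.81, left of all 16 ticks, and its place is the same in both panels because scaling shifts all precursors nearly alike.

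The other miRNAs typical of neurons were examined as a list of 16 precursors of 10 miRNAs, mir-9, mir-128, mir-129, mir-132, mir-134, mir-137, mir-138, mir-153, mir-212 and mir-218. As deposited all 16 rose, where 69.4% of all tested precursors did, with a median log2 fold change of 0.83 against 0.74 for all tested precursors. The smallest rise was that of mir-128-2 at 1.43-fold (log2 0.52) and the largest that of mir-138-2 at 2.92-fold (log2 1.54). The groups did not overlap in any of the 16. Groups without overlap were also common among the other tested precursors, and their share was not counted. The ratio of miR-124 to each of the 16 was lower in every cKO library, where the same held for 65.3% of all other tested precursors, and the log2 difference ran from -0.59 for mir-128-2 to -1.61 for mir-138-2. Copies of a miRNA share reads, so these 16 are not separate measurements.

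Within the list, mir-9-2 rose 1.65-fold (limma adjusted p = 0.0011) and mir-129-1, abundant in neurons of the brain, rose 1.92-fold. The pair mir-132 and mir-212, transcribed together after neuronal activity through CREB, rose 1.78-fold and 1.61-fold. The dendritic miRNA mir-134 rose 1.77-fold, mir-153 rose 1.67-fold and mir-218-1, known from motor neurons, rose 2.00-fold. The precursor mir-137 rose 2.07-fold at the lowest level of the list. It averaged 42.9 ± 4.62 RPKM over controls and 92.7 ± 29.2 RPKM over cKO libraries (SD, n = 3 each). With median-of-ratios scaling mir-138-1 and mir-138-2 rose, at 0.81 each on the log2 scale, and no other member was called (range -0.22 to 0.81). As deposited miR-124, at -0.07, stood below the lowest of these 16, at 0.52, but only 23 of all 458 other tested precursors (5.02%) had a log2 fold change below that of miR-124. A scaling factor per library shifts all precursors nearly alike, so this order is the same by construction after median-of-ratios scaling.

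In order of abundance per length, miR-124 held position 29 over all 6 libraries, counting its copies once and copies of other miRNAs separately. It held positions 29, 27 and 28 in control 1 to 3 and 30, 34 and 34 in cKO 1 to 3, so its place was lower in every cKO library. The 10 precursors of highest level, mir-182, mir-181a-2, mir-181a-1, mir-204, mir-30a, mir-211, mir-26a-2, mir-26a-1, mir-30d and mir-183, exceeded its mean of 83776 RPKM by 4.25-fold (mir-183) to 67.6-fold (mir-182). Directly above it stood mir-22, mir-181c and mir-191, and directly below it mir-9-2, mir-125a and let-7b. The neighbour mir-191 averaged 80562 ± 20514 RPKM over controls and 91626 ± 7093 RPKM over cKO libraries (SD, n = 3 for either), lay within 1 SD of miR-124 in controls and did not pass the test (log2 0.22, limma adjusted p = 0.29). The neighbour mir-9-2 was below miR-124 in control 2 and control 3 and above it in control 1 and in every cKO library. The other 4 neighbours rose: mir-22 by 0.51, mir-181c by 0.77, mir-125a by 0.68 and let-7b by 0.70 on the log2 scale.

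The precursors with the profile most like that of miR-124 over the 6 libraries were found by the root-mean-square distance between log2(RPKM + 1) profiles, each centred on its own mean, among the 159 that averaged 1000 RPKM or more. The median distance was 0.43. The nearest was mir-484, whose hairpin is capped at its transcription start and bypasses Drosha, at a distance of 0.053. Its level was 3539, 4676 and 4356 RPKM in control 1 to 3 and 4228, 4002 and 3510 RPKM in cKO 1 to 3, the same order as in miR-124 except that cKO 3 was just below control 1. Next came mir-151 at 0.090, mir-28c at 0.098, mir-28a at 0.10 and mir-708 at 0.17. None of these 5 passed the test as deposited, and their log2 fold changes ran from -0.093 (mir-484) to 0.18 (mir-708). They were chosen for likeness to miR-124, which was itself not called, so small fold changes follow from the choice. For comparison mir-182 lay at a distance of 0.44.

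The 3 copies also differed from each other by small numbers of reads. Reads at mir-124-2 exceeded those at mir-124-1 by 19, 11 and 26 in control 1 to 3 and by 80, 55 and 38 in cKO 1 to 3. Per 1000000 library reads this was 2.61 ± 1.04 for controls and 8.81 ± 2.43 for cKO libraries (SD, n = 3 for either), and the groups did not overlap. Counting error is wide at such numbers. Taken as a single count, the excess had 95% Poisson intervals of 17.0 to 38.1 in control 3 and 26.9 to 52.2 in cKO 3, which overlap. The intervals of control 2 (5.5 to 19.7) and cKO 1 (63.4 to 99.6), the libraries furthest apart, did not.

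Reads at mir-124-1 exceeded those at mir-124-3 by 24, 38 and 22 in control and by 6, 16 and 8 in cKO 1 to 3. Per 1000000 library reads this excess was 3.95 ± 1.36 for controls and 1.55 ± 0.728 for cKO libraries (SD, n = 3 for either), again without overlap. The 95% Poisson intervals of the read excess overlapped between control 3 (13.8 to 33.3) and cKO 2 (9.1 to 26.0), the nearest libraries. They did not between control 2 (26.9 to 52.2) and cKO 1 (2.2 to 13.1). Reads at mir-124-2 exceeded those at mir-124-3 by 43, 49 and 48 in control and by 86, 71 and 46 in cKO 1 to 3, with overlapping groups (exact permutation p = 0.3). Per 1000000 library reads this was 6.55 ± 0.711 for controls and 10.4 ± 2.01 for cKO libraries (SD, n = 3 for either), without overlap.

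The log2 read ratios of the 3 pairs of copies each had p = 0.1 by exact permutation (two-sided), the lowest value possible, also after Benjamini-Hochberg adjustment over the 3 pairs. Any 2 of these ratios fix the third, so they are not 3 separate tests. Such an excess is the net of reads found only at either copy, and it amounts to at most 0.167% of the reads. The sources used here do not tell whether counting used strand, so reads of the overlapping gene Mir124b cannot be told apart from those of mir-124-2. For comparison, the 3 copies of mir-9 differed by 0.0074% to 0.0244% and the 2 copies of mir-128 by 2.46% to 3.47%.

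The 6 libraries held 5480940 to 7478237 reads, at which 1 read in mir-124-1 is worth 1.57 to 2.15 RPKM, so depth did not limit any miR-124 value. Lists of miRNAs of other retinal cell types were followed in the same libraries, and their part in the miR-124 result was not tested. As deposited 69.4% of all tested precursors were called higher, and miR-124 was not called. The counts of each list below are to be read beside that share. The median log2 fold change of all tested precursors was 0.74, so a higher sum is not particular to a cell type. How often sums of other precursors would be without overlap was not counted. The summed level of the 3 miR-183 cluster members ran from 7568213 to 7894241 RPKM among controls and from 4037712 to 4911543 RPKM among cKO libraries (mir-182 and mir-96 fell, to 0.550-fold and 0.712-fold). It was higher in every cKO library for inner neurons (6 of 6 rose, mir-181a-2 and mir-181a-1 1.64-fold), Müller glia (4 of 4, mir-125b-2 1.65-fold and mir-125b-1 1.63-fold), pigment epithelium (2 of 2, mir-204 1.94-fold and mir-211 1.95-fold), vessels (3 of 3, mir-126 2.58-fold and mir-143 1.56-fold), red cells (2 of 3, mir-486 1.66-fold and mir-451a 2.14-fold), leukocytes and microglia (2 of 4 tested, mir-150 2.07-fold and mir-142 1.85-fold) and oligodendrocytes (1 of 3, mir-338 1.61-fold, with mir-219-1 at 0.17 on the log2 scale not called). It overlapped for muscle (2 of 4 tested, mir-133a-1 and mir-133a-2 1.57-fold) and for lens and cornea (0 of 5 tested were called, mir-184 at 2.12 and mir-31 at 1.45 on the log2 scale; sums of 2566 to 54426 RPKM among controls and 25450 to 63544 RPKM among cKO libraries). With median-of-ratios scaling 1 member of these lists was called higher, mir-126 of vessels, and the 3 members of the miR-183 cluster were called lower. No marker of any list was at 0 in every library. The most abundant precursors were mir-182 and mir-181a-2, markers of photoreceptors and inner neurons, the cells of the labelled tissue.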

How the data were processed

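Per the labels' protocols, small RNA libraries (1 µg input, 11 PCR rounds, gel-selected inserts) shared a 50-base sequencing run. The authors deposited RPKM per precursor. Bowtie and mm9 are named in the submitters' processing notes. The sources used here do not tell the annotation, filters, strand or treatment of reads that fit several precursors. RPKM times RefSeq precursor length (832 precursors) was a whole number of reads for 100.0% of 3276 values above 0 (tolerance 0.01 reads), which gave reads and library totals. The sum over precursors was 1.55 to 1.86 times the library total, so shared reads count at each copy.

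Groups came from the labels' descriptions. limma 3.58.1 in R 4.3.3 (eBayes with trend, two-sided) was fitted on log2(RPKM + 1) to the 461 precursors that averaged 10 RPKM or more, and again with the 3 copies replaced by their mean. P-values were adjusted by the Benjamini-Hochberg method and called below 0.05. Fold changes on this scale understate changes of low precursors. The fit was tested on simulated data in which mir-182 was unchanged and other precursors moved up or down at random. That test does not cover a shift in library composition like the one seen here. Single values were tested by exact permutation, and intervals are from scipy 1.17.1. Alternatives covered pseudocount, filter, scaling, model, replicate block and left-out libraries. Named precursors are the copies, 9 ratio partners, the list of neurons, the 10 most abundant, neighbours in level, the 5 nearest profiles and 2 abundant markers of each cell type. Members and lists were chosen with earlier results of these data known.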

Additional observations from a re-analysis of the deposited data

How the results depend on the processing

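For the miR-124 level the direction and the missing call held in the other pseudocount, filters, variance models, library weights (-0.21), voom on whole reads (-0.068), summed copies and replicate block, and mir-124-1, mir-124-2 and mir-124-3 behaved alike. Scaling made the call. With median-of-ratios scaling the copies mir-124-1, mir-124-2 and mir-124-3 and their mean stood at -0.81 each, with totals without mir-182 reads at -0.70, -0.70, -0.70 and -0.70, with totals without the 10 most abundant precursors at -0.58 each, and with median-of-ratios scaling without control 1 at -0.93 each. With quantile normalization mir-124-2 alone was called, at -0.57, against -0.46 for the mean of the copies. Leaving out each library gave -0.23 to 0.023 for the mean, -0.24 to 0.023 for mir-124-1, -0.23 to 0.024 for mir-124-2 and -0.23 to 0.023 for mir-124-3, above 0 only without control 2.

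Precursors called higher and lower numbered 320 and 8 as deposited, 10 and 46 with median-of-ratios scaling, 20 and 36 with totals without mir-182 reads, 57 and 29 without the 10 most abundant, 14 and 31 with quantile normalization, and 14 and 47 with median-of-ratios scaling without control 1. The number lower was 4 with a minimum of 100 RPKM and 14 with library weights. Leaving out each library gave 252 to 322 higher and 4 to 12 lower. Of the 16 other precursors of neurons, 2 were called higher with median-of-ratios scaling, with totals without mir-182 reads, with quantile normalization and with median-of-ratios scaling without control 1, and 4 without the 10 most abundant; leaving out each library gave 15 to 16.

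The share of library reads differed by -0.042 percentage points (-0.61 without mir-182 reads in the total), with a range of -0.12 to 0.0041 when leaving out each library. The ratio to mir-183 ran from -0.078 to 0.20 on the log2 scale when leaving out each library, with -0.0002 without control 2. The other 8 ratios and the 3 copy ratios kept their direction in every alternative run. The count of precursors with a lower miR-124 ratio, 299 with all libraries, was 305 to 379 when leaving out each library, where fewer libraries make overlap less likely.

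Replicate numbers are shared between groups by label only. Deviations of same-numbered libraries correlated at 0.19, 0.26 and 0.0093, so the numbers were not taken as pairs. With the replicate block miR-124 stood at -0.07 (limma adjusted p = 0.67) and 338 precursors were called higher and 10 lower. Depth did not limit miR-124.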
